A study of Mus musculus with 2 samples.

Results

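The Id family was followed in tissue cut from above and from below the dorsal aorta of the mouse embryo. Its members were taken by gene number: the 4 array features whose Entrez numbers, 15901, 15902, 15903 and 15904, belong to Id1, Id2, Id3 and Id4, out of 24675 genes with a symbol. Embryos came from C57Bl/6 mice at embryonic day 10.5, when the aorta-gonad-mesonephros region makes its first blood stem cells, and carried no other treatment or allele in the labels. The dorsal piece lay between notochord and aortic roof and the ventral piece lay under the vessel, both from the same embryos; the sources used here do not say how many. Each piece was laser-cut from unfixed frozen sections of 20 µm, so it holds every cell type of its position. There was 1 Affymetrix array per tissue, numbered biological replicate 4 in both labels, so every value below stands without replicate error and nothing was tested.

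Id genes encode small helix-loop-helix proteins that lack the basic region with which related factors grip DNA. They pair with E proteins such as those of Tcf3, Tcf4 and Tcf12, and such pairs cannot bind the E-box, so tissue-specific helix-loop-helix factors lose their partner. Bone morphogenetic proteins (BMPs) act through receptor kinases on Smad1, Smad5 and Smad9, which enter the nucleus with Smad4 and switch on Id genes, widely used for that reason as a readout of the pathway. BMP signalling is known to act in the tissue around the aorta when blood stem cells emerge there, and Id1 and Id3 are known to act together in endothelium.

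The DNA ahead of the genes is shown first for Id3 and Id2, because these had signals well above background on both arrays and differed in opposite directions. Each sequence is the 250 bases before the annotated start in RefSeq on GRCm38.p6, at chr4:136143572-136143821 on the plus strand for Id3 and chr12:25096093-25096342 on the minus strand for Id2. Capitals mark the GC-rich site GGCGCC read by BMP Smads and the 4-letter Smad site, GTCT or AGAC.
Id3: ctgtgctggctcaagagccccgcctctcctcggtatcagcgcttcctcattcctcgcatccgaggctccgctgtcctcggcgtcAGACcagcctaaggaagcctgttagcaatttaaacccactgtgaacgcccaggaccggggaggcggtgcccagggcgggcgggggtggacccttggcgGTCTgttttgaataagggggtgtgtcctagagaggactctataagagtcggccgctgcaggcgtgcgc
Id2: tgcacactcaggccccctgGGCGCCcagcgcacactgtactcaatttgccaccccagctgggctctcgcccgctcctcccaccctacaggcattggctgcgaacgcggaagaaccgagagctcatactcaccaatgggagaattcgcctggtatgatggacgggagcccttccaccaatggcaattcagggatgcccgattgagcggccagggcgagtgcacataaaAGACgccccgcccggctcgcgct
Matched entries were used for 3 of the 4 genes, Id2, Id3 and Id4. The Id2 window held 1 GGCGCC, starting 231 bases before the gene, and the Id4 window, at chr13:48260866-48261115 on the plus strand, held 1 starting 148 bases before it. The Id3 window held 0. Among 32851 windows of the same length, 9.59% held this motif, which reads the same on both strands. The shorter site occurred 2 times ahead of Id3, 1 time ahead of Id2 and 0 times ahead of Id4, and 82.9% of all windows held at least 1. An E-box, CANNTG, occurred 1 time ahead of Id2 and 0 times ahead of Id3 and Id4, against 66.2% of windows with at least 1. The guanine and cytosine content was 62.8% for Id2 and Id3 and 75.6% for Id4, against a median window of 52.4%. These matches describe the letters of the windows, and no binding was measured. The shares were over all windows, not those of like guanine and cytosine content, and DNA outside the 250 bases was not searched.

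Values are log2 expression, and 1365 olfactory and vomeronasal receptor genes, thought silent here, served to mark background. A level under their 95th percentile over both arrays, 3.92, is called background, and levels between it and their 99th percentile, 5.48, are less certain. Of the genes with a symbol, 13982 were kept because the higher of their levels reached 3.10, the median over all genes, and all 4 Id genes were among them. Differences are ventral minus dorsal throughout, and their median over these kept genes was -0.12.

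Id3 was the family member with a large difference, and it lay on the dorsal side. Its level was 8.87 in dorsal and 5.95 in ventral tissue, both above the receptor genes' 99th percentile. The difference was -2.92 on the log2 scale, or 7.55-fold higher in dorsal tissue, and -2.80 relative to the median of kept genes. In bulk tissue, fewer cells of a type and less RNA per cell cannot be told apart.

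Id2, which is also used as a marker of innate lymphoid cells, had a smaller difference on the ventral side. Its level was 6.75 in dorsal and 7.42 in ventral tissue, and both were well above background. That is 0.67 on the log2 scale, or 1.60-fold, short of the 2-fold size used here to call a gene different.

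Id1, the member most often used as an early BMP readout, was close to background in the dorsal piece. Its level was 4.01 there, only 0.09 above the background mark, and 4.78 in ventral tissue. The difference of 0.77, or 1.71-fold, was short of 2-fold, and both levels were in the less certain range.

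Id4, known mainly from neural progenitors and the male germ line, was near or at background. Its level was 4.09 in dorsal tissue and 3.58, under the background mark, in ventral tissue. The measured difference was -0.51, and against the mark it is at least 1.13-fold higher in dorsal tissue. Thus the family did not share a direction: Id3 and Id4 were measured higher above the aorta and Id1 and Id2 higher below it.

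**Figure D1:**
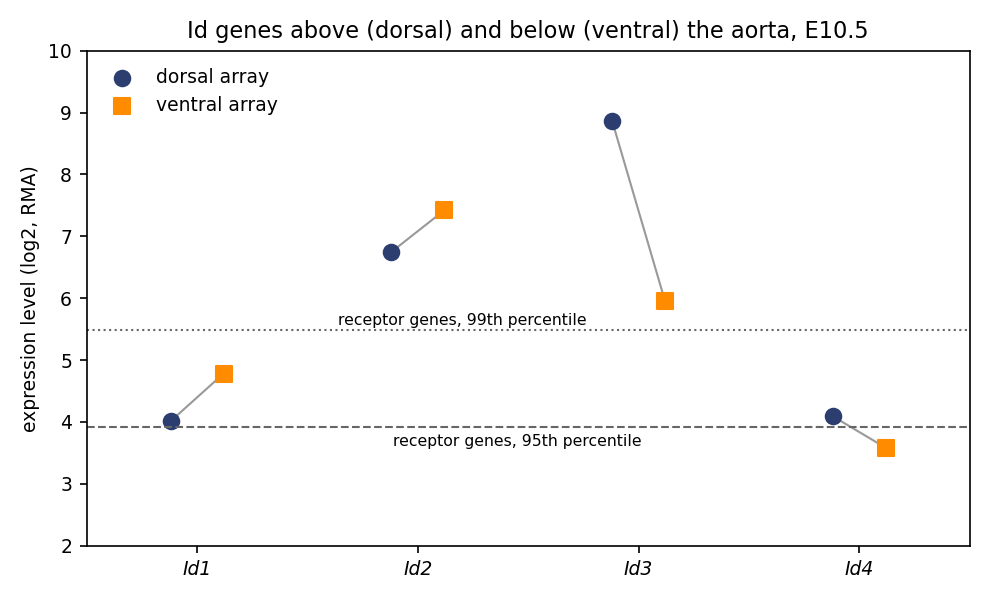
Expression level (log2) of each Id gene on the dorsal array (circle) and the ventral array (square), 1 array per tissue, joined by a line. Dashed and dotted lines are the 95th and 99th percentiles of receptor genes, 3.92 and 5.48; Id3 drops from 8.87 to 5.95 from dorsal to ventral, while Id2 goes from 6.75 to 7.42.

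Set among all kept genes, 1 of the 4 Id genes exceeded 2-fold toward dorsal, against 4.88% of all kept genes, and 0 toward ventral, against 9.44%; either way the background was 14.3%. Among genes that passed the receptor genes' 99th percentile on an array, as Id2 and Id3 did, 12.7% exceeded 2-fold toward dorsal and 30.1% toward ventral. With 4 members these shares describe the family and test nothing. Id3 stood at rank 52 of the 13982 genes ordered from the greatest dorsal excess. Among the 500 genes nearest to Id3 in mean level, 7 had a dorsal excess at least as great, and their 5th and 95th percentiles were -1.77 and 2.24. The other members lay inside the ranges of genes of their own level. A ventral excess at least as great as that of Id2 was found in 169 of its 500 nearest genes, and one at least as great as that of Id1 in 89 of 500. For Id4, 85 of 500 genes had a dorsal excess at least as great. These spreads mix tissue difference with measurement error, so they are not an error of the Id values.

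**Figure D2:**
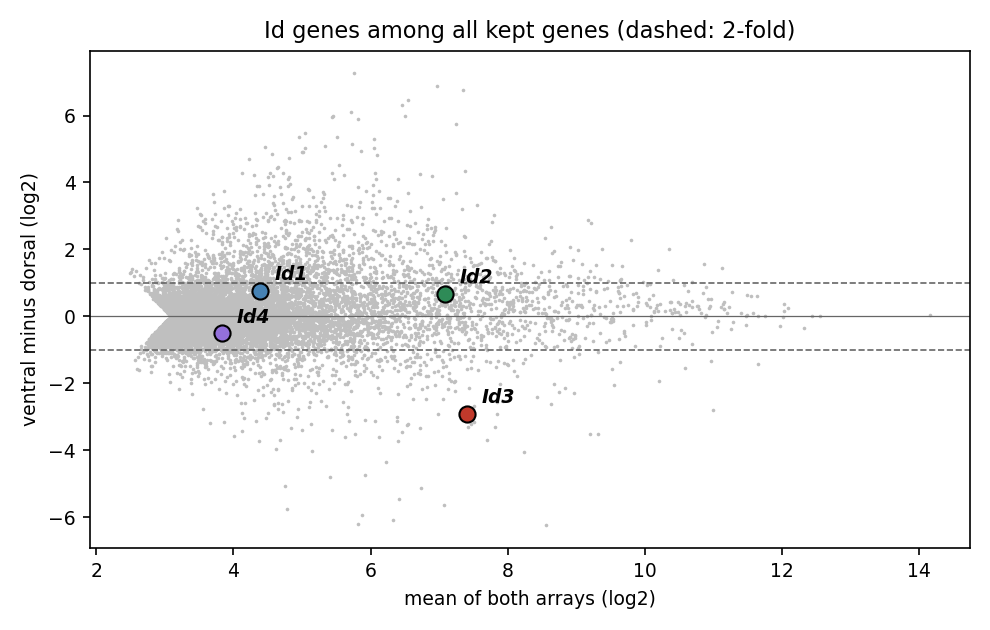
Log2 difference, ventral minus dorsal, against the mean of both arrays for 13982 kept genes (grey) and the Id genes (coloured); dashed lines are 2-fold. Id3, at -2.92, lies below nearly all genes of its level, and Id1, Id2 and Id4 lie between the lines.

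The members were also compared with each other, which cancels a constant shift of a whole array but not one that varies with level. The Id1 and Id2 differences were within 0.10 of each other on the log2 scale as deposited. They lay further apart under quantile normalization, at 0.68 and 0.38, and after a loess on level, at 0.81 and 0.46. That of Id3 lay 3.69 below Id1, so that the ratio of Id1 to Id3 signal was 12.9-fold greater in ventral than in dorsal tissue. The Id1 factor is less certain, with the Id1 dorsal level only 0.09 above the background mark. Against Id2 the corresponding factor was 12.1-fold. No such factor is given for Id4, whose ventral level was under the background mark. The balance of the family thus differed between the pieces mainly through Id3, on 1 array each.

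Few genes shared the pattern of Id3. By the distance between dorsal and ventral log2 levels, its nearest genes among 11918 other protein-coding ones were Sco2, a copper chaperone of cytochrome oxidase, at 0.21, Rap1b, a small GTPase, at 0.23, and Aif1l, an actin-binding protein, at 0.28. These 3 were the only ones of those genes within 0.5. In contrast 112 lay that close to Id2, with Atxn7l3b, the amino acid transporter gene Slc38a4 and Pafah1b2 nearest. The numbers were 563 for Id1, with Dmrtc1a, the mitochondrial ribosomal gene Mrps22 and the polyamine acetyltransferase gene Sat1 nearest, and 2030 for Id4, with Spns3, Tmie and Gm7932 nearest. The low levels of Id1 and Id4, where genes crowd, place many genes near them, and likeness over 2 arrays says little.

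The E proteins, the dimer partners of ID proteins, were above background in both tissues, with Tcf3 in the less certain range on both arrays and Tcf4 on the ventral array. Tcf4 had a level of 6.65 in dorsal and 4.62 in ventral tissue, 4.09-fold higher in dorsal. Tcf3 had 5.45 and 4.26, 2.27-fold higher in dorsal. Tcf12 differed little, at 7.37 and 7.19. Thus 2 of 3 E protein genes were at least 2-fold higher on the array where Id3 was high, under each scaling tried, and 0 of 3 were 2-fold higher in ventral tissue. Toward dorsal the background was 4.88% of kept genes and 12.7% of those above the receptor genes' 99th percentile. The list's median difference was -1.18, against -0.12 for all kept genes.

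Helix-loop-helix factors that pair with E proteins were mixed. Of 23 mesodermal and blood factors 13 were kept, with 1 at least 2-fold higher in each tissue and a median difference of -0.29. These counts are near the background, 9.44% of kept genes toward ventral and 4.88% toward dorsal. Tcf21, a factor of visceral mesenchyme, had 2.79 in dorsal and 6.38 in ventral tissue, at least 5.52-fold higher in ventral. Msc, musculin, had 4.42 and 3.37, at least 1.41-fold higher in dorsal, and its measured difference of -1.05 fell short of 2-fold when differences were centred or a loess on level was removed. Twist1, which keeps mesenchyme undifferentiated, was abundant in both pieces, at 8.00 in dorsal and 7.03 in ventral tissue, a difference of -0.97 that passed 2-fold under quantile normalization, at -1.28, and after a loess on level, at -1.21. Hand1 and Hand2, factors of ventral mesoderm named after their values were seen, differed by 0.34 and -0.01. Of 15 measured neural factors 7 were kept and 0 were 2-fold apart in either direction. Neurog2, a proneural gene, was the 1 neural factor above background, at 4.36 on the dorsal array against 3.85.

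Upstream, the 2 BMP ligands with the largest differences, Bmp5 and Bmp4, were higher in ventral tissue, opposite to Id3. Id1 and Id2 were also measured higher in ventral tissue, short of 2-fold. Of 10 kept ligands 2 exceeded 2-fold toward ventral, where the background was 9.44% of kept genes and 30.1% of the bright ones. Bmp5 had 4.03 in dorsal and 8.13 in ventral tissue. Bmp4 had 3.83, under the background mark, and 5.54. Bmp7 was the 1 ligand 2-fold apart in the other direction, where the background was 4.88% of kept genes and 12.7% of the bright ones. It had 4.85 in dorsal and 3.85, under the background mark, in ventral tissue, at least 1.90-fold higher in dorsal. Its difference sat at the threshold and was -0.88 after centring and -0.96 after a loess on level. The list median was -0.06. Of 12 measured secreted antagonists, which trap these ligands, 9 were kept, 0 were 2-fold apart and 0 were above background on either array, so a difference was not detectable at this signal. The antagonist with the highest mean was Sost, at 3.63 and 3.58.

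Among the receptors, 10 of 12 genes were kept, with 1 at least 2-fold higher in each tissue and a list median of 0.02. The background was 9.44% of kept genes toward ventral and 4.88% toward dorsal, so these counts are near it. Bmpr2, the type II receptor, had 8.67 in dorsal and 9.85 in ventral tissue, a difference of 1.18 that was 0.98 under quantile normalization and 0.91 after a loess on level. Rgma, a BMP co-receptor also known for repelling axons, had 5.26 in dorsal and 4.10 in ventral tissue, 2.24-fold higher in dorsal. Bmpr1a, the type I receptor, differed little, at 5.36 and 5.19.

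The Smads that carry the signal were above background in part. Of 9 kept genes of this list, Smurf2, a ubiquitin ligase that removes Smads, was the 1 at least 2-fold apart, with 6.11 on the dorsal array against 5.07. The background was 4.88% of kept genes toward dorsal and 9.44% toward ventral. The Smurf2 difference of -1.04 became -0.92 after centring. Smad4, the shared partner, had 5.92 and 6.90, a difference of 0.98 toward ventral that became 1.10 after centring. The 1 call of this list thus changed from Smurf2, toward dorsal, to Smad4, toward ventral, when differences were centred. Smad1, Smad5 and Smad9, named here for their role, differed by 0.40, -0.26 and -0.23, and Smad9 was at background on both arrays. The list median was 0.11, and -0.10 under quantile normalization.

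Other genes that BMP Smads are known to induce did not follow a common side. Of 10 kept targets outside the Id family, 2 exceeded 2-fold toward ventral and 1 toward dorsal, with a median of 0.11; the background was 9.44% and 4.88%. Smad6, the inhibitory Smad of the feedback loop, had 3.09 in dorsal and 5.55 in ventral tissue, at least 3.10-fold higher in ventral. Dlx5, a homeobox gene, had 3.06 and 4.16, at least 1.18-fold higher in ventral. Hey1, which also answers to Notch, had 7.49 in dorsal and 5.77 in ventral tissue, 3.30-fold higher in dorsal. Msx1 differed by 0.13 at levels above background, while Smad7 was at background in both tissues.

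**Figure D3:**
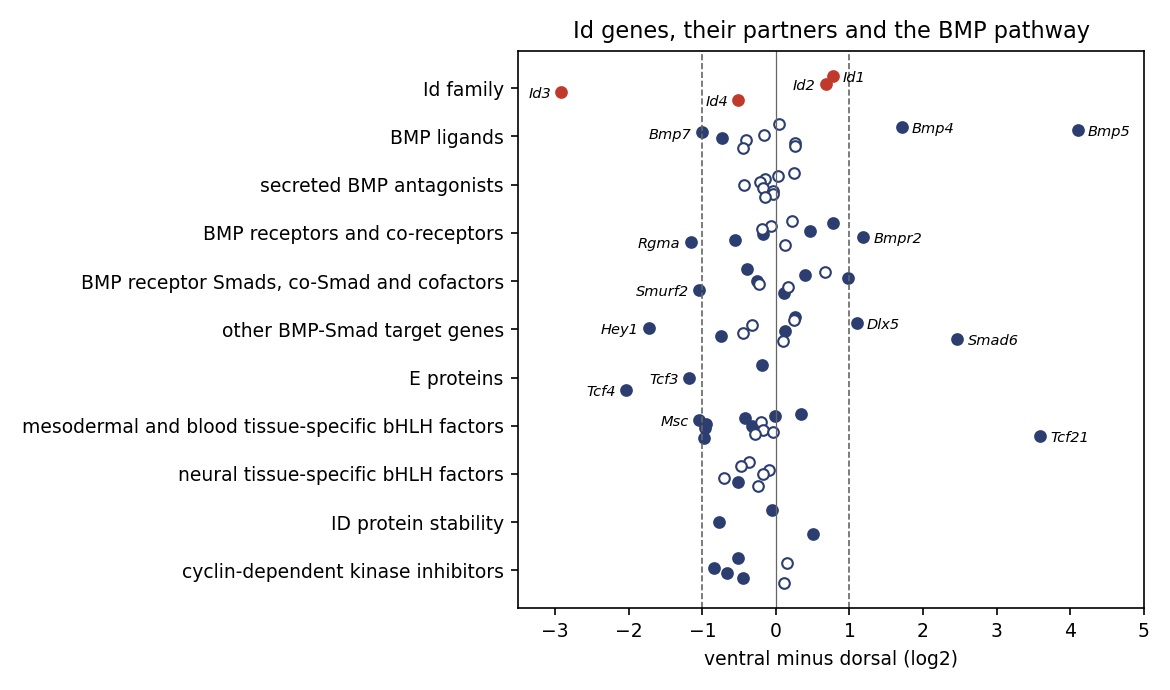
Log2 difference, ventral minus dorsal, of the 4 Id genes (red) and of the kept members of 10 related lists (blue); each point is a gene, open points are under the receptor genes' 95th percentile on both arrays, dashed lines are 2-fold, and genes at least 2-fold apart are named. Id3 and the E protein genes Tcf3 and Tcf4 lie on the dorsal side, and Smad6, Bmp4 and Bmp5 on the ventral side.

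Over these 10 lists, 79 of 108 measured genes were kept, 6 of them beyond 2-fold toward ventral and 7 toward dorsal, against 9.44% and 4.88% of all kept genes. Genes for the turnover of ID proteins were within 2-fold in 3 of 3 cases. Cops5, a subunit of the COP9 signalosome, had 6.66 and 6.61. Usp1, a deubiquitinase of ID proteins, had 3.71, under the background mark, in dorsal and 4.22 in ventral tissue. Fzr1 had the largest difference of this list, -0.77, or 1.70-fold higher in dorsal. Its levels of 5.02 in dorsal and 4.25 in ventral tissue were in the less certain range. Cyclin-dependent kinase inhibitors, some of which E proteins are known to induce and ID proteins to restrain, had 0 of 6 kept genes at least 2-fold apart, with a median of -0.48. The one with the highest mean was Cdkn1c, at 5.64 in dorsal and 4.80 in ventral tissue. Its difference of -0.84 reached -1.08 under quantile normalization.

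The 2 pieces also differed in cell type markers, the part of which in the Id values was not tested. Sclerotome genes, which mark mesenchyme beside the notochord, counted 3 of 8 kept genes beyond 2-fold toward dorsal, Pax9 and Col2a1 included, and 0 toward ventral. The background shares were 4.88% and 9.44%. Pax1, a defining sclerotome gene, was at background in both pieces, at 3.73 and 3.20. The summed linear signal of the list was 252 in dorsal and 129 in ventral tissue. Of 4 kept notochord genes, Shh and Noto exceeded 2-fold toward dorsal, both with ventral levels at background. Against the mark, Shh was at least 2.30-fold and Noto at least 1.25-fold higher in dorsal tissue. The Noto difference of -1.03 was -0.91 after centring. Neural crest and glial genes counted 1 of 4 kept genes, Fabp7, beyond 2-fold toward dorsal, at 8.15 against 6.20, while Sox10 was at background in both pieces.

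On the ventral side, where Id1 and Id2 were measured higher, 4 of 9 kept genes of coelomic epithelium, with Wt1 and Tcf21 the brightest, 3 of 7 kept endothelial genes, with Cdh5 the brightest, and 4 of 6 kept smooth muscle and pericyte genes, including Cnn1, Actg2 and Acta2, were at least 2-fold higher. The background toward ventral was 9.44% of kept genes and 30.1% of those above the receptor genes' 99th percentile. Against the background mark, Emx2 was at least 1.92-fold, Podxl 1.38-fold, Kdr 1.88-fold and Rgs5 1.18-fold higher, each short of 2-fold. The other calls of these lists stayed beyond 2-fold against the mark. The Acta2 difference of 1.16 was 0.87 under quantile normalization. The summed linear signals were 136 in dorsal and 331 in ventral tissue for coelomic epithelium, 95.2 and 235 for endothelium and 91.6 and 303 for smooth muscle. None of these 3 lists had a gene at least 2-fold higher in dorsal tissue. Osr1, however, the 1 coelomic gene above the background mark on both arrays, leaned toward the dorsal side. Its difference was -0.62, from levels of 5.63 in the dorsal piece and 5.01 in the ventral piece. Neuronal genes were on both sides, with Nefm and Nefl higher in ventral and Tubb3 in dorsal tissue. Nefl, at 2.62 in dorsal and 3.96 in ventral tissue, was barely above the background mark, at least 1.03-fold higher in ventral. Erythroid genes were mixed: among embryonic globins, Hba-x differed by -0.30 and Hbb-y by -0.01, and Alas2, of heme synthesis, by 0.71. Klf1 was 2.14-fold higher in dorsal tissue, and its difference of -1.10 became -0.98 after centring. Macrophage genes were at background apart from Cx3cr1, and of the gut endoderm genes Sox17, also an endothelial gene, was the 1 above background.

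The direction of each Id difference was the same in the alternatives tried. Raising the lower level cannot reverse a direction, and it left Id1, Id2 and Id3 unchanged. The Id3 difference ran from -3.15 under quantile normalization to -2.80 after centring, beyond 2-fold in each. That of Id2 ran from 0.38 under quantile normalization to 0.79 after centring, so its size depends on how the arrays are scaled. That of Id1 ran from 0.68 to 0.89 and that of Id4 from -0.51 to -0.17, within 2-fold throughout.

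**Figure D4:**
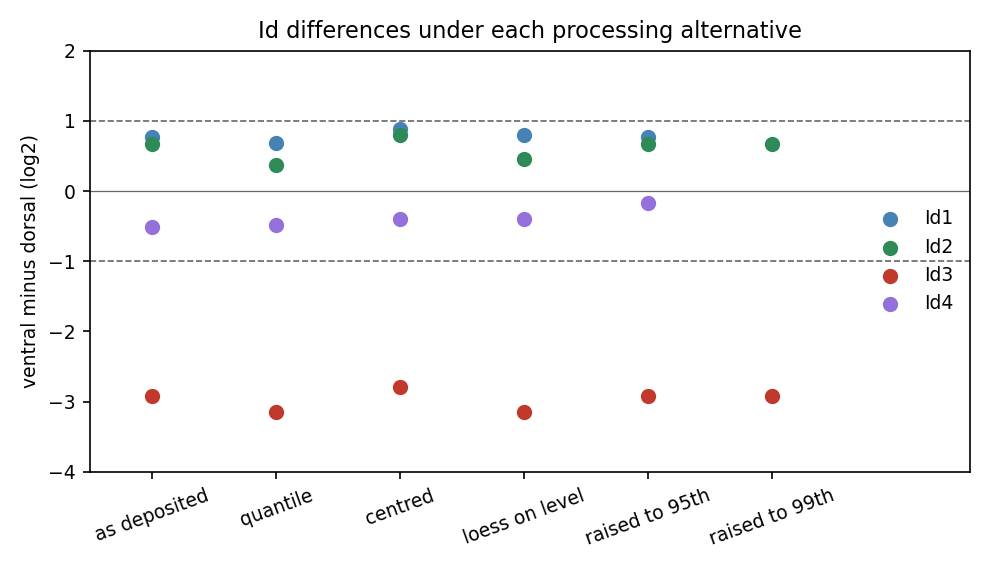
Log2 difference, ventral minus dorsal, of each Id gene as deposited, after quantile normalization of the columns, centring on the median of kept genes, a loess on level, or raising the lower level to the receptor genes' 95th or 99th percentile; dashed lines are 2-fold. Id3 stays between -3.15 and -2.80; Id1 and Id4 have no point at the 99th percentile because both of their levels are under it.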

How the data were processed

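RNA from laser-cut tissue, 200 to 1000 pg per labelling reaction per the labels' protocols, was amplified isothermally before hybridisation; amplification from so little RNA can distort levels. The deposited log2 values were made by the authors with Affymetrix Expression Console and RMA, per the submitters' processing notes; versions, probe annotation and genome build: not given in the sources used here. Of 25429 features, 24675 had 1 symbol and all matched a RefSeq gene number; 754 had none and were left out. Arrays were assigned by title. No test was possible with 1 array per tissue, so genes were called by size, at least 2-fold on measured values. Where the lower level was under the background mark, the fold printed is against that mark. Precision is limited by having 2 arrays, and levels of different genes rest on different probes.

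The named genes were the Id genes, the 3 protein-coding genes nearest to each, list members at least 2-fold apart and above background, the member of each list with the highest mean, and the marker genes at least 2-fold apart above the 99th percentile, with Pax1, Noto, Shh, Wt1, Cdh5 and Hbb-y. T was not analysed here. Further genes, among them Bmpr1a, Msx1, Smad7, Usp1, Nefl, Klf1, Hba-x, Alas2, Sox10, Cx3cr1 and Sox17, were named after their values were seen. Uncx, Osr1, Emx2, Podxl, Kdr, Rgs5 and Fzr1 were named in this way too. The members and lists were chosen with earlier results of these data known. The distance of 0.5 and the 500 nearest genes were set after the data were seen. The planned comparison of protein sequences was not run. The counting and smoothing steps were tested on simulated data. Loess (span 0.3) came from statsmodels 0.14.6 and quantile ranks from scipy 1.17.1, with tables in pandas 2.3.3 under Python 3.11.15.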

Additional observations from a re-analysis of the deposited data

How the results depend on the processing

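No paired analysis was possible because each tissue has 1 array. For the same reason no replicate could be left out. Of 62 alternative values, 54 kept their direction and their side of the 2-fold size, or were counts within 1.5 times, whichever genes were counted. These 54 include every value for the Id genes, some of which could not change. Raising the lower level could not alter Id1, Id2 or Id3, whose levels already lay above the percentile used. Centring moved every difference by 0.12, less than any Id difference, so it could not reverse one. With the size lowered to 1.5-fold, 2286 kept genes passed it toward ventral and 2099 toward dorsal; at 3-fold, 626 and 228 did. Under quantile normalization the receptor list had 1 gene 2-fold apart in place of 2, the mesodermal helix-loop-helix list 4 in place of 2, and the kinase inhibitors 1 in place of 0. After centring, the mesodermal list had 1, and the 1 gene of the Smad list lay on the ventral in place of the dorsal side. Centring also moved the counts over all kept genes to 1527 and 527, and quantile normalization to 1157 and 799. With only genes kept whose higher level reached the background mark, 7101 remained. Of these, 17.7% passed 2-fold toward ventral and 8.46% toward dorsal, larger shares than among all kept genes. Raising the lower level to the 99th percentile of the receptor genes gave no value for Id1 and Id4. Levels of Id1 and Id4 near background limit what their differences show.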
